A study of Mus musculus with 9 samples.

Results

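The axon guidance family examined here comprised the semaphorins of classes 3 to 7, the plexins and neuropilins that receive them, the Eph receptors and ephrins, the Slits and Robo receptors, the netrins and Dcc. Members were chosen by gene symbol alone, from probe sets that name 1 gene, and 62 of the 22180 genes measured were members: 20 semaphorins, 9 plexins, 2 neuropilins, 13 Eph receptors, 8 ephrins, 3 Slits, 3 Robo receptors, 3 netrins and Dcc. One further symbol, Ntn5, stood only in probe sets shared with another gene and was not used. Expression was profiled on 9 Affymetrix GeneChip Mouse 2.0 ST arrays, 3 per group, from total RNA of frozen brain tumors or lesions, and the values are log2 signals, on which a difference of 1 is a 2-fold difference.

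The P3 mouse carries a Cre-activated human PDGFRα transgene under the ubiquitous CAG promoter and conditional p53 alleles. Adult striatum is injected with a lentivirus that delivers Cre constitutively and human PDGF-A under doxycycline (DOX) control, so the dose of DOX in the diet sets the dose of ligand, and the resulting tumors are glioblastomas (GBM). The P3 high DOX group (genotype hPDGF-A;hPDGFRα;p53lox in the labels) received a 600 mg/kg DOX diet, and the P3 low DOX group, of the same genotype, 25 mg/kg. These doses are those of the labels, and the published text gives a slightly larger figure for the high diet. The third group, OPC lesion, was made of proliferating oligodendrocyte precursor cell (OPC) lesions from mice fed 600 mg/kg DOX. Its genotype is hPDGFRα;p53 in the labels, whereas the published text describes OPC lesions after the PDGF-A-Cre virus in conditional p53 mice without the receptor transgene, so the genotype of these 3 arrays is not settled. All 3 groups share the conditional p53 alleles, and P3 high DOX and OPC lesion share the diet dose. Shared alleles do not mean shared p53 loss. The published text reports wild-type p53 expression in cells of its OPC lesions, whereas its cultures of P3 tumors were p53 null. The P3 groups and OPC lesion may therefore differ in p53 status as well. The published text gives the injected mice as adults of 3 months or older. The arrays are called biological replicates, with no statement on littermates or sexes, or on the age behind each array. Each is bulk tissue that includes host brain cells, so fewer cells of a type and less RNA per cell cannot be told apart.

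Guidance molecules steer growing axons and migrating cells by attraction or repulsion. Secreted class 3 semaphorins act through neuropilins paired with plexins, membrane-bound semaphorins bind plexins directly, ephrins and Eph receptors signal in both directions between touching cells, Slits repel through Robo receptors, and netrins attract through Dcc or repel through Unc5 receptors. In adult brain the same families are used at synapses, in the oligodendrocyte lineage, by microglia and in blood vessels, so a bulk tumor draws them from many cell types.

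Defining markers of OPCs (Pdgfra, Olig1, Olig2, Sox10 and 5 others) averaged a log2 signal of 9.55 to 11.28 in P3 high DOX, 9.76 to 10.94 in P3 low DOX and 9.80 to 10.998 in OPC lesion arrays, so no group lacked them. Neuron markers (10 of 11 listed genes measured) differed far more between arrays. Their mean signal was 8.04, 10.50 and 6.62 in P3 high DOX replicates 1 to 3, 6.52, 5.27 and 6.47 in P3 low DOX, and 10.33, 6.21 and 8.96 in OPC lesion. P3 high DOX replicate 2 and OPC lesion replicate 1 therefore stood above the other arrays on this list, by which alone they are called neuron-rich below. A list of striatal neuron markers (4 of 7 listed genes measured) was ordered otherwise. It was highest on P3 high DOX replicate 1 (9.05), with 7.66 on OPC lesion replicate 1 and 6.43 on P3 high DOX replicate 2. P3 high DOX replicate 2 also had the highest mean of choroid plexus and ependyma markers (7.05, against 4.45 to 4.62 on the other 8 arrays), P3 low DOX replicate 3 the highest mean of fibroblast markers (10.50), and P3 low DOX replicate 1 the highest means of myelinating oligodendrocyte markers (11.10) and T cell markers (6.63). The part of these cell types in the results below was not tested.

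**Figure D1:**
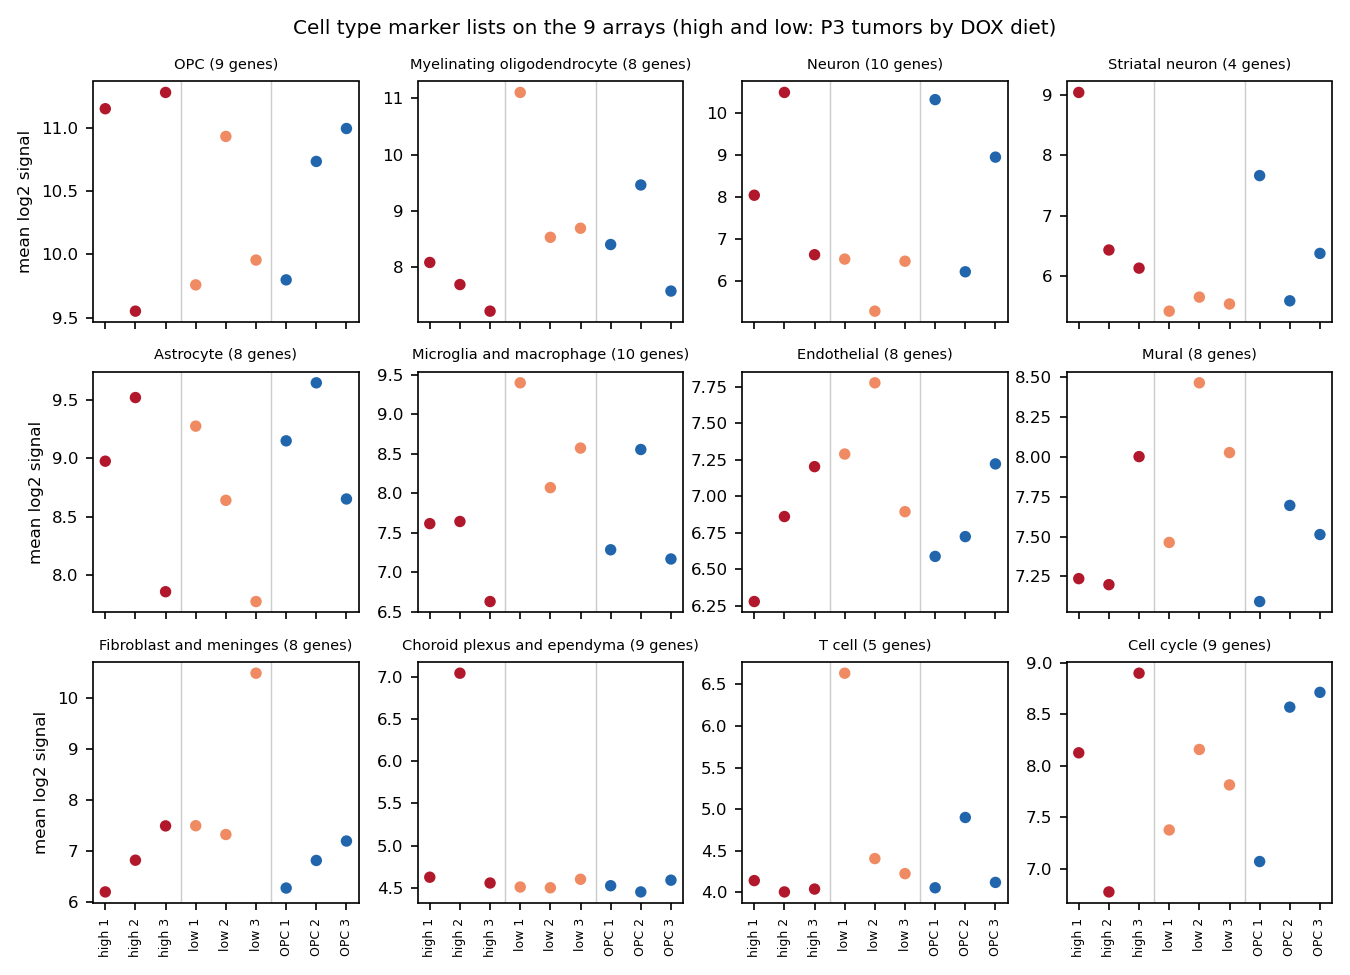
Mean log2 signal (y axis) of 12 lists of marker genes, 1 list per panel, on each of the 9 arrays (x axis; P3 high DOX, P3 low DOX and OPC lesion from left to right, 1 point per array). The neuron list spans 5.27 to 10.50, with P3 high DOX replicate 2 and OPC lesion replicate 1 at the top, and the 3 P3 low DOX arrays hold the top of the microglia and macrophage list together with OPC lesion replicate 2.

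Most of the family was measured above the middle of the arrays. Of the 62 members, 43 lay above the median gene in all 3 groups, 13 in some and 6 in none (Sema3a, Epha1, Epha2, Epha8, Efna4 and Robo3). These places are among the 22180 genes. The medians of all 41345 probe sets on an array, with or without a gene name, were 4.55 to 4.83 and do not mark the median gene. Without detection calls in the files, the 6 dim members were not shown to be above background. Signals of different probe sets also depend on the probes, so a place on the array is no measure of one gene's abundance against another's.

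Between arrays the members varied widely. The range of a member's log2 signal over the 9 arrays was 0.65 to 4.88, and 28 members ranged over more than 2 log2 units. Efna3, a membrane-anchored ephrin-A, had the widest range, with 7.28, 10.47 and 6.01 in P3 high DOX, 5.68, 6.38 and 5.60 in P3 low DOX, and 9.19, 5.99 and 7.65 in OPC lesion arrays. Epha6, an ephrin-A receptor of neurons, had 6.08, 8.83 and 4.17 in P3 high DOX, 4.22, 4.02 and 4.36 in P3 low DOX, and 7.69, 4.38 and 5.17 in OPC lesion. In both genes 2 arrays stood out, P3 high DOX replicate 2 and OPC lesion replicate 1 above the other 7. P3 high DOX arrays were also the least alike, with a median within-group SD over the members of 0.66, against 0.47 in P3 low DOX and 0.47 in OPC lesion.

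**Figure D2:**
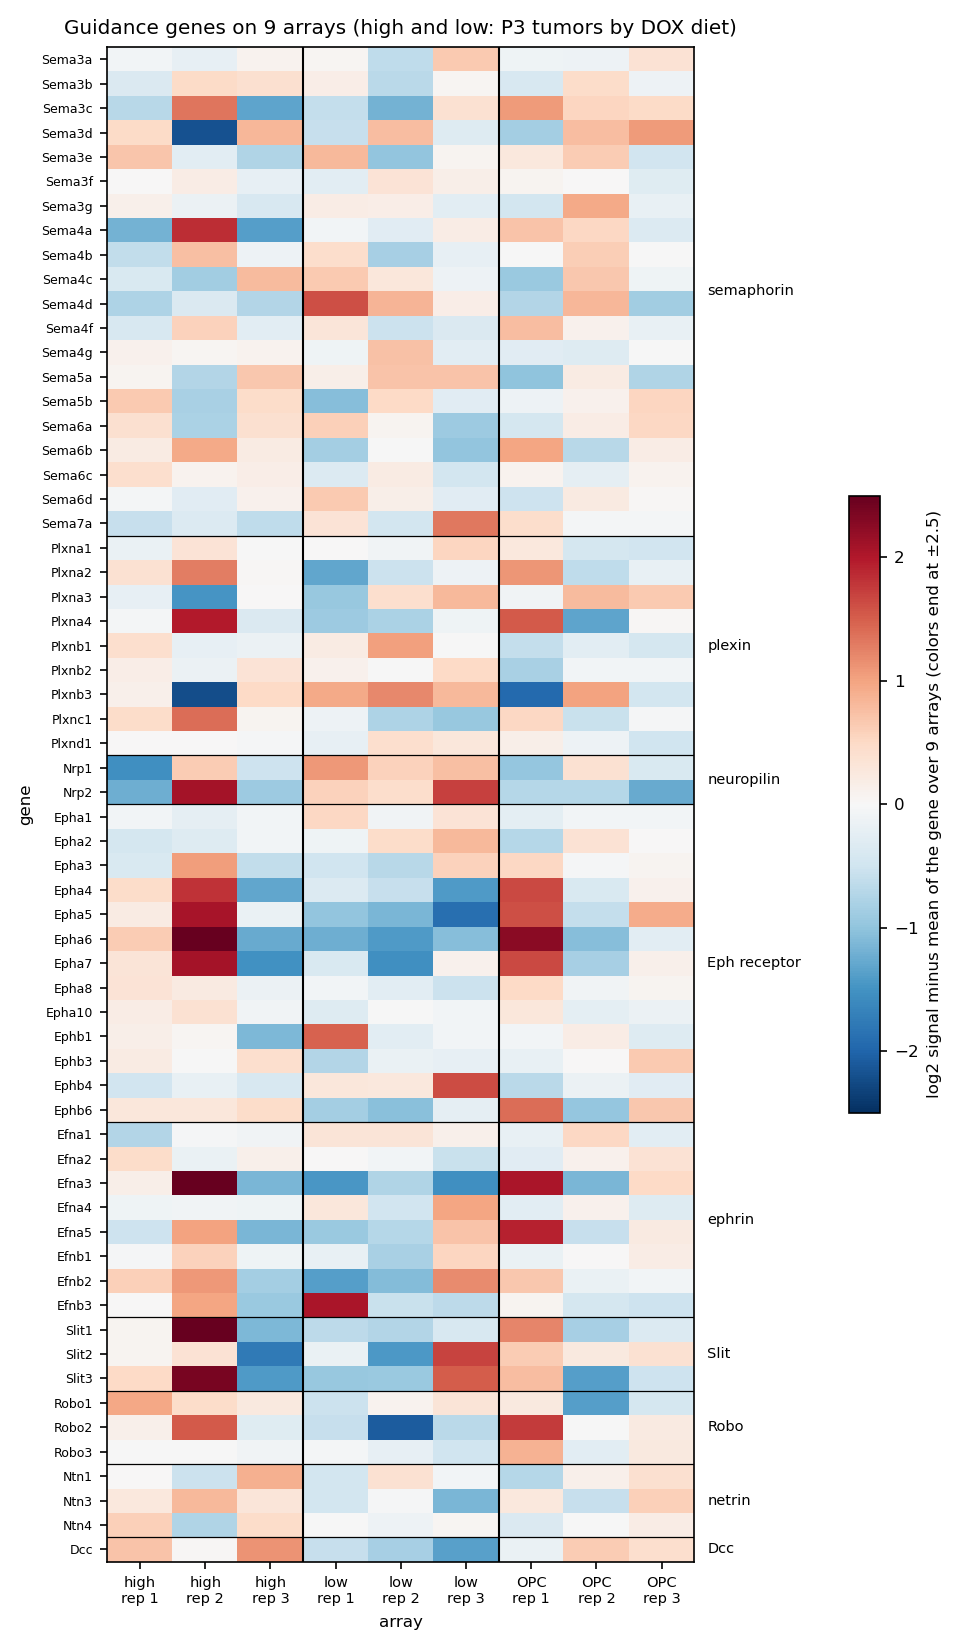
Log2 signal of the 62 guidance genes (rows, grouped by class) on the 9 arrays (columns, P3 high DOX, P3 low DOX and OPC lesion from left to right), each minus the gene's mean over the 9 arrays. P3 high DOX replicate 2 held the highest value of 19 genes, and Epha4 to Epha7, Efna3 and Slit1 are bright there and in OPC lesion replicate 1.

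The brightest probe sets of the family, which were not ordered by abundance for the reason above, were those of Sema3d, Sema5a, Sema6a, Sema6d, Plxnb2 and Plxnb3. Sema6a, a transmembrane ligand of plexin-A2 and plexin-A4, had 10.59, 9.40 and 10.59 in P3 high DOX, 10.79, 10.26 and 9.30 in P3 low DOX, and 9.76, 10.39 and 10.71 in OPC lesion arrays. Sema6d, a transmembrane semaphorin that binds plexin-A1, had 8.80, 8.55 and 8.94 in P3 high DOX, 9.49, 8.98 and 8.56 in P3 low DOX, and 8.33, 9.07 and 8.88 in OPC lesion. Both genes overlapped fully between the groups. Secreted Sema3d had 9.69, 7.02 and 10.03 in P3 high DOX, 8.63, 9.98 and 8.89 in P3 low DOX, and 8.35, 9.98 and 10.27 in OPC lesion. Plxnb3, the plexin of the oligodendrocyte lineage that receives Sema5a, had 9.16, 6.83 and 9.55 in P3 high DOX, 9.98, 10.25 and 9.86 in P3 low DOX, and 7.11, 10.06 and 8.58 in OPC lesion. Sema3d and Plxnb3 were lowest on the same 2 arrays that were highest for Efna3 and Epha6.

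The first comparison asked how the dose of the ligand's inducer was related to the family within P3 tumors. Dcc, Epha5, Robo2, Plxnc1, Ntn3 and Sema6b had higher signals in P3 high DOX than in P3 low DOX tumors, and Sema4d, Nrp1 and Ephb4 lower ones, each by about 2-fold or more on the group means, but none passed the test across all genes. With limma and Benjamini-Hochberg adjustment over the 22180 genes, 0 of 62 members passed an adjusted p of 0.05 (0% of all genes did), and the smallest adjusted p of a member was 0.376. At an unadjusted p under 0.05, 6 members (9.68%) were higher, against 5.25% of all genes, and 3 (4.84%) were lower, against 4.89% of all genes. With 1 array left out, the count of these 9 members was as low as 5 (without P3 high DOX replicate 1, or without P3 low DOX replicate 3) and as high as 14 (without OPC lesion replicate 1). The signals of the groups did not overlap in 9 members that were higher (14.5%), against 8.23% of all genes, and in 4 that were lower (6.45%), against 7.76%. The median log2 difference of P3 high DOX minus P3 low DOX was 0.15 over the members and -2e-04 over all genes, and without P3 high DOX replicate 2 the members' median was -0.0049. In the same comparison neuron markers were higher in 10 of 10 genes (median log2 difference 2.11), myelinating oligodendrocyte markers lower in 8 of 8 (median -1.94), fibroblast markers lower in 8 of 8 (median -1.55) and microglia and macrophage markers lower in 9 of 10 (median -1.49), and their part in the members' differences was not tested.

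**Figure D3:**
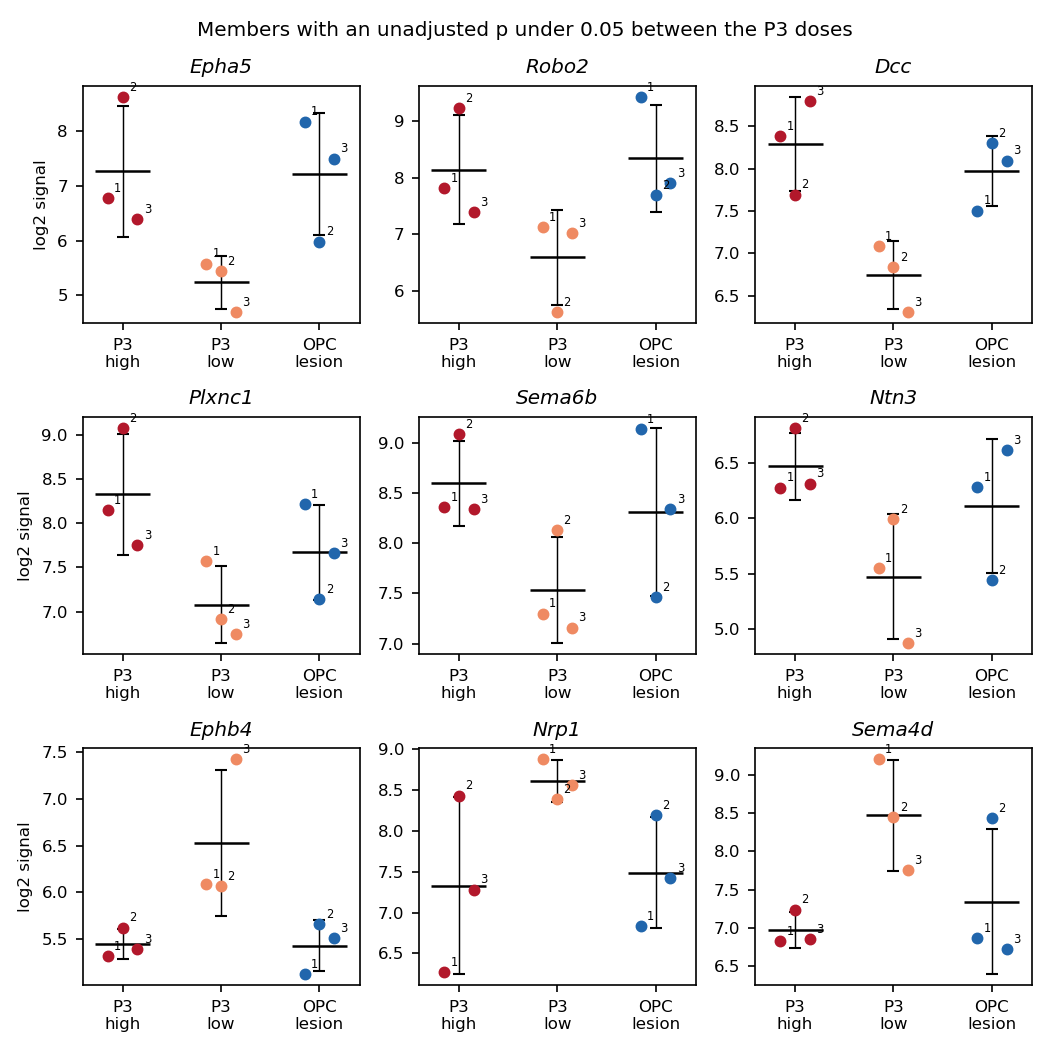
Log2 signal (y axis; scales differ between panels and do not start at 0) of the 9 members with an unadjusted p under 0.05 between P3 high DOX and P3 low DOX, 1 panel per gene. Points are arrays numbered by replicate, the horizontal line is the group mean and the bar 1 SD (n = 3). In the 6 genes from Epha5 to Ntn3 every P3 high DOX array lies above every P3 low DOX array, and in Ephb4 and Sema4d every one lies below.

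Among the netrins and their receptor, Dcc had the smallest p of the family. Dcc, the transmembrane receptor through which netrin-1 attracts axons, had a log2 signal of 8.38, 7.69 and 8.80 in P3 high DOX, 7.08, 6.84 and 6.30 in P3 low DOX, and 7.51, 8.30 and 8.10 in OPC lesion arrays. All 3 P3 low DOX arrays were below all 6 others. P3 high DOX minus P3 low DOX was 1.55 ± 0.34 (log2 difference ± SE, 2.93-fold, limma adjusted p = 0.376), and leaving out any 1 array gave 1.30 to 1.85. P3 low DOX minus OPC lesion was -1.23 ± 0.34 (2.34-fold lower, limma adjusted p = 0.436). These comparisons share the P3 low DOX arrays and are not independent of each other. P3 high DOX replicate 2 had the lowest Dcc signal of its group, and OPC lesion replicate 1 that of its own. Both arrays had the highest neuron marker mean of their group and also the lowest OPC marker mean (9.55 and 9.80). The part of either cell type in the Dcc values was not tested.

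Ntn3, a secreted netrin, had 6.28, 6.82 and 6.31 in P3 high DOX, 5.55, 5.99 and 4.87 in P3 low DOX, and 6.28, 5.44 and 6.62 in OPC lesion. The P3 groups did not overlap, while OPC lesion spanned both. Its log2 difference of P3 high DOX minus P3 low DOX was 1.0 ± 0.37 (SE, limma adjusted p = 0.441). Ntn1, the netrin that defines the attractive response through Dcc, averaged 7.55 ± 0.72 in P3 high DOX, 7.38 ± 0.42 in P3 low DOX and 7.37 ± 0.58 in OPC lesion (SD, n = 3 each), and Ntn4, a netrin of basement membranes, averaged 6.96 ± 0.74 in P3 high DOX, 6.83 ± 0.09 in P3 low DOX and 6.79 ± 0.28 in OPC lesion. Differences of both were within the spread of the arrays.

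Among the Robo receptors, Robo2 had the smallest p between the P3 doses and Robo1 the smallest between P3 high DOX and OPC lesion. Robo2, a receptor through which Slits repel axons, had 7.81, 9.23 and 7.39 in P3 high DOX, 7.12, 5.62 and 7.02 in P3 low DOX, and 9.43, 7.69 and 7.91 in OPC lesion. P3 low DOX was below every other array, and the top 2 arrays were again P3 high DOX replicate 2 and OPC lesion replicate 1. The log2 difference was 1.56 ± 0.66 for P3 high DOX minus P3 low DOX (SE, limma adjusted p = 0.485) and -1.76 ± 0.66 for P3 low DOX minus OPC lesion (adjusted p = 0.486). Robo1, the other main Slit receptor of brain, had 9.16, 8.66 and 8.44 in P3 high DOX, 7.66, 8.29 and 8.52 in P3 low DOX, and 8.44, 6.82 and 7.75 in OPC lesion. Robo1 in P3 high DOX exceeded OPC lesion on every array by a narrow margin, with a log2 difference of 1.09 ± 0.42 (2.12-fold, limma adjusted p = 1). Robo3, a divergent Robo that does not bind Slits well in mammals, was dim throughout, with 3.85, 3.85 and 3.76 in P3 high DOX, 3.81, 3.64 and 3.36 in P3 low DOX, and 4.72, 3.60 and 4.10 in OPC lesion.

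The ligands Slit1, Slit2 and Slit3 had 0 of 3 members at an unadjusted p under 0.05 in any comparison by limma, and wide intervals. Of all genes, 5.25% were higher and 4.89% lower in P3 high DOX than in P3 low DOX. With 3 members, a count of 0 lies near such shares. Slit1 had 6.19, 8.92 and 5.005 in P3 high DOX, 5.47, 5.41 and 5.73 in P3 low DOX, and 7.36, 5.31 and 5.79 in OPC lesion. Its 2 highest arrays were those with most neuron marker signal. Slit2 was highest at 8.67 on P3 low DOX replicate 3, where fibroblast markers were also highest. The 2 highest values of Slit3 were 8.68 on P3 high DOX replicate 2 and 7.81 on P3 low DOX replicate 3. The SE of a Slit difference had a median of 0.94, against 0.43 over the family, so differences of the size seen for Dcc were not detectable here.

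Of the 13 Eph receptors, 9 had a higher mean in P3 high DOX than in P3 low DOX and 4 a lower one, with a median log2 difference of 0.43, and among the 9 EphA receptors 7 were higher. Epha5, a receptor for ephrin-A ligands that is abundant on forebrain neurons, had 6.77, 8.64 and 6.40 in P3 high DOX, 5.58, 5.43 and 4.69 in P3 low DOX, and 8.18, 5.98 and 7.50 in OPC lesion. P3 low DOX was below every other array. The log2 difference was 2.04 ± 0.71 for P3 high DOX minus P3 low DOX (4.10-fold, limma adjusted p = 0.432) and -1.99 ± 0.71 for P3 low DOX minus OPC lesion (adjusted p = 0.486). Leaving out any 1 array gave 1.35 to 2.47 for the first. Epha4, Epha6 and Epha7, further EphA receptors of neurons, followed the same order of means between the P3 groups, with Epha6 at a log2 difference of 2.16 (95% interval -0.63 to 4.95).

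Among the EphB receptors, Ephb4 and Ephb6 differed in opposite directions. Ephb4, the ephrin-B2 receptor of venous endothelium, had 5.32, 5.63 and 5.40 in P3 high DOX, 6.09, 6.07 and 7.43 in P3 low DOX, and 5.13, 5.66 and 5.51 in OPC lesion. Every P3 low DOX array was above all others, replicate 3 by the widest margin. The log2 difference was -1.08 ± 0.36 for P3 high DOX minus P3 low DOX (2.11-fold lower, limma adjusted p = 0.429) and 1.09 ± 0.36 for P3 low DOX minus OPC lesion (adjusted p = 0.459), and without P3 low DOX replicate 3 these were -0.63 and 0.64. Ephb6, an Eph receptor without kinase activity, had 7.04, 7.04 and 7.21 in P3 high DOX, 5.92, 5.71 and 6.54 in P3 low DOX, and 8.15, 5.79 and 7.44 in OPC lesion, and Ephb3 had 7.63, 7.42 and 7.85 in P3 high DOX and 6.69, 7.26 and 7.22 in P3 low DOX. For both, the P3 high DOX arrays were above the P3 low DOX arrays without overlap, at log2 differences of 1.04 and 0.58 (limma, adjusted p = 0.548 and adjusted p = 0.50). Epha1, better known from epithelia, was dim, with 4.02, 3.88 and 4.02 in P3 high DOX, 4.61, 4.004 and 4.44 in P3 low DOX, and 3.85, 4.02 and 4.02 in OPC lesion, and its difference of 0.39 for P3 low DOX minus OPC lesion (limma adjusted p = 0.505) comes from a probe set that reads the same value, 4.02, on 4 of the 9 arrays.

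Ephrins, the ligands of these receptors, gave 0 of 8 members at an unadjusted p under 0.05 in every comparison by limma. Of all genes, 5.25% were higher and 4.89% lower in P3 high DOX than in P3 low DOX. The shares were 4.40% and 5.41% for P3 low DOX minus OPC lesion, and smaller in the other comparisons. With 8 members, a count of 0 lies near these shares. Efna1, an ephrin-A also made by endothelium, had 6.52, 7.23 and 7.18 in P3 high DOX and 7.59, 7.58 and 7.39 in P3 low DOX. The groups did not overlap, at a log2 difference of -0.54 (95% interval -1.14 to 0.06). Efnb2, the main partner of Ephb4, had 8.13, 8.61 and 6.68 in P3 high DOX, 6.15, 6.44 and 8.72 in P3 low DOX, and 8.21, 7.36 and 7.45 in OPC lesion. It averaged 7.81 ± 1.01 in P3 high DOX, 7.10 ± 1.41 in P3 low DOX and 7.67 ± 0.46 in OPC lesion (SD, n = 3 each). Differences of these means were within the spread of the arrays. P3 low DOX replicate 3 held the highest signal of both Efnb2 and Ephb4.

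Semaphorins were the largest class, and their means split between the doses. Of 20, 8 had a higher and 12 a lower mean in P3 high DOX than in P3 low DOX, with a median log2 difference of -0.07. Sema4d, a transmembrane semaphorin of oligodendrocytes and lymphocytes that binds plexin-B1, had 6.82, 7.24 and 6.86 in P3 high DOX, 9.21, 8.45 and 7.75 in P3 low DOX, and 6.87, 8.43 and 6.72 in OPC lesion. P3 low DOX lay above P3 high DOX on every array, while OPC lesion replicate 2 reached the P3 low DOX range. The log2 difference was -1.50 ± 0.51 for P3 high DOX minus P3 low DOX (2.82-fold lower, limma adjusted p = 0.429) and 1.13 ± 0.51 for P3 low DOX minus OPC lesion (adjusted p = 0.513). On the same arrays, myelinating oligodendrocyte markers averaged 7.23 to 8.09 in P3 high DOX, 8.54 to 11.10 in P3 low DOX and 7.58 to 9.46 in OPC lesion, with the highest OPC lesion value on replicate 2, and their part in the Sema4d difference was not tested.

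Sema6b, a transmembrane ligand of plexin-A4, had 8.36, 9.09 and 8.35 in P3 high DOX, 7.30, 8.14 and 7.16 in P3 low DOX, and 9.14, 7.47 and 8.34 in OPC lesion. P3 high DOX stayed above P3 low DOX by a log2 difference of 1.07 ± 0.45 (SE, limma adjusted p = 0.484). Sema5a, a semaphorin with thrombospondin repeats that binds plexin-B3, had 8.68, 7.88 and 9.30 in P3 high DOX, 8.76, 9.32 and 9.34 in P3 low DOX, and 7.61, 8.82 and 7.86 in OPC lesion. P3 low DOX overlapped OPC lesion by 1 array at a log2 difference of 1.04 ± 0.42 (limma adjusted p = 0.497). Sema7a, the glycolipid-anchored ligand of plexin-C1, had 7.80, 8.04 and 7.75 in P3 high DOX, 8.73, 7.92 and 9.71 in P3 low DOX, and 8.82, 8.34 and 8.33 in OPC lesion. Every P3 high DOX array was below every OPC lesion array, at a log2 difference of -0.64 ± 0.40 (limma adjusted p = 1). Secreted Sema3c had 4.35, 6.40 and 3.73 in P3 high DOX, 4.45, 3.87 and 5.43 in P3 low DOX, and 6.11, 5.58 and 5.54 in OPC lesion, so P3 low DOX lay below OPC lesion on every array while P3 high DOX overlapped it through replicate 2 alone.

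Of the 9 plexins, 3 had a higher and 6 a lower mean in P3 high DOX than in P3 low DOX. Plxnc1, the receptor of Sema7a, had 8.14, 9.08 and 7.75 in P3 high DOX, 7.57, 6.91 and 6.75 in P3 low DOX, and 8.22, 7.14 and 7.66 in OPC lesion. P3 high DOX was above P3 low DOX without overlap, at a log2 difference of 1.25 ± 0.41 (2.38-fold, limma adjusted p = 0.429). Plxna2, a receptor of Sema6a, had 8.16, 9.07 and 7.82 in P3 high DOX, 6.50, 7.26 and 7.67 in P3 low DOX, and 8.89, 7.16 and 7.60 in OPC lesion. Its P3 groups did not overlap either (log2 difference 1.21, 95% interval -0.0033 to 2.42). Plxnb3, with the values given above, lay below P3 low DOX on every P3 high DOX array at a log2 difference of -1.52 (95% interval -3.52 to 0.49), and replicate 2 was the lowest of all arrays.

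By its brighter probe set, the one used, Plxnb1 was the only member whose 6 P3 arrays all exceeded the 3 OPC lesion arrays. Its dimmer probe set averaged 4.09 in P3 high DOX, 4.56 in P3 low DOX and 4.04 in OPC lesion. It thus hardly separated P3 high DOX from OPC lesion. The values that follow are those of the brighter one. Plxnb1, the receptor of Sema4d, had 8.47, 7.83 and 7.90 in P3 high DOX, 8.24, 9.06 and 8.04 in P3 low DOX, and 7.45, 7.78 and 7.61 in OPC lesion. The smallest gap, between P3 high DOX replicate 2 and OPC lesion replicate 2, was narrow. The log2 difference from OPC lesion was 0.46 ± 0.29 for P3 high DOX (limma adjusted p = 1), 0.83 ± 0.29 for P3 low DOX (adjusted p = 0.476) and 0.64 ± 0.25 for the mean of both doses (adjusted p = 0.974). Plxnb2, a plexin-B that receives Sema4c, had 9.53, 9.22 and 9.70 in P3 high DOX, 9.47, 9.36 and 9.85 in P3 low DOX, and 8.54, 9.29 and 9.29 in OPC lesion. Its mean of both doses minus OPC lesion was 0.48 ± 0.21 (adjusted p = 0.974), and OPC lesion replicate 1 was the lowest array by far. Plxna3, a partner of neuropilin-2 in Sema3f signaling, had 6.80, 5.54 and 7.02 in P3 high DOX, 6.07, 7.43 and 7.82 in P3 low DOX, and 6.92, 7.79 and 7.67 in OPC lesion, with overlap and a log2 difference of -1.01 ± 0.54 for P3 high DOX minus OPC lesion (limma adjusted p = 1).

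Both neuropilins had higher means in P3 low DOX. Nrp1, which pairs with plexins for class 3 semaphorins and with VEGF receptors on endothelium, had 6.27, 8.43 and 7.28 in P3 high DOX, 8.88, 8.39 and 8.56 in P3 low DOX, and 6.84, 8.19 and 7.43 in OPC lesion. P3 low DOX was above all OPC lesion arrays and above P3 high DOX except for its replicate 2. The log2 difference of P3 high DOX minus P3 low DOX was -1.28 ± 0.54 (2.43-fold lower, limma adjusted p = 0.485). Nrp2, the neuropilin for Sema3f, had 6.27, 9.55 and 6.58 in P3 high DOX, 8.06, 7.93 and 9.19 in P3 low DOX, and 6.77, 6.77 and 6.22 in OPC lesion. P3 low DOX exceeded OPC lesion without overlap, at a log2 difference of 1.81 ± 0.81 (limma adjusted p = 0.513), while P3 high DOX held both some of the lowest values and the highest. Microglia and macrophage markers averaged 6.63 to 7.64 in P3 high DOX, 8.07 to 9.40 in P3 low DOX and 7.17 to 8.55 in OPC lesion, and endothelial markers 6.28 to 7.20 in P3 high DOX, 6.89 to 7.78 in P3 low DOX and 6.59 to 7.22 in OPC lesion. Fibroblast markers averaged 6.19 to 7.49 in P3 high DOX, 7.32 to 10.50 in P3 low DOX and 6.27 to 7.19 in OPC lesion. P3 low DOX replicate 3 had the highest Ephb4 and Nrp2 signals of its group. It was highest in fibroblast markers but lowest of its group in endothelial markers (6.89). The highest Nrp2 signal lay on P3 high DOX replicate 2, the array highest in choroid plexus and ependyma markers. The part of all these cells in the neuropilin and Ephb4 values was not tested.

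**Figure D4:**
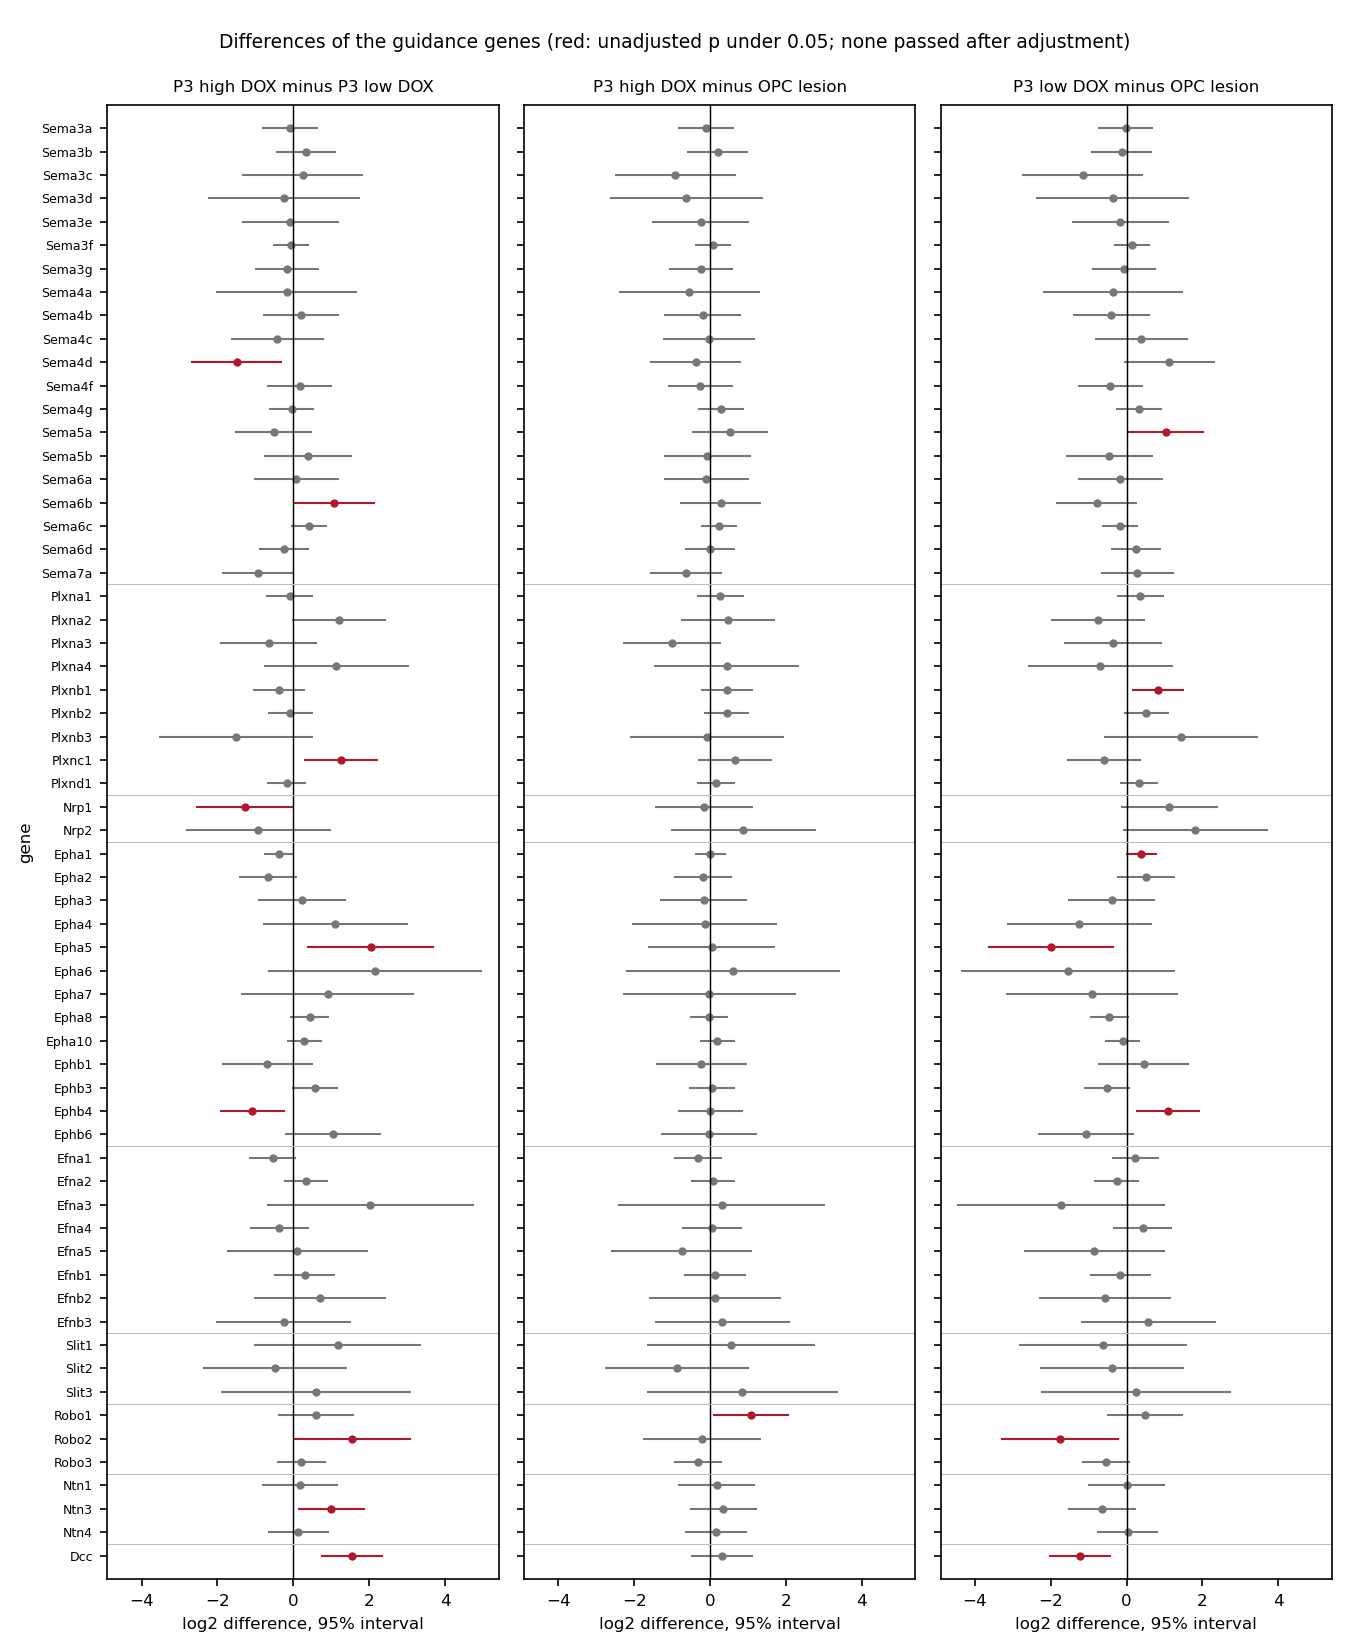
Log2 difference (point) and 95% interval from limma (line) of each of the 62 guidance genes in 3 comparisons, 1 per panel, with genes grouped by class from semaphorins at the top to Dcc at the bottom. Red marks an unadjusted p under 0.05 (9, 1 and 7 genes in the panels from left to right), and after adjustment over all genes none passed 0.05.

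In the second comparison, P3 low DOX tumors set against OPC lesions, Dcc, Epha5 and Robo2 had lower signals and Ephb4, Plxnb1, Sema5a and the dim Epha1 higher ones at an unadjusted p under 0.05. After adjustment with limma 0 of 62 members passed (0% of all genes), the smallest adjusted p being 0.436. The 4 higher members made 6.45% of the family, against 4.40% of all genes, and the 3 lower ones 4.84%, against 5.41%. Groups did not overlap in 5 members that were higher (Ephb4, Nrp1, Nrp2, Plxnb1 and Plxnb2, 8.07%), against 6.34% of all genes, and in 5 that were lower (Dcc, Epha5, Epha6, Robo2 and Sema3c, 8.07%), against 7.92%. These shares lie near those of all genes. The median log2 difference was -0.17 over the members and -0.0034 over all genes. The count of 7 members at an unadjusted p under 0.05 was 3 without OPC lesion replicate 1, 4 without OPC lesion replicate 3 and 14 without OPC lesion replicate 2, so it depended on single lesion arrays. Neuron markers were lower in P3 low DOX than in OPC lesion in 10 of 10 genes, with a median log2 difference of -2.16, and fibroblast markers higher in 8 of 8, with a median of 1.64.

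The third comparison, P3 high DOX tumors against OPC lesions on the same diet dose, gave the fewest members with an unadjusted p under 0.05 of the comparisons between pairs of groups. Robo1 was the single one (1.61% of the family higher, against 0.897% of all genes, and none lower, against 0.726%). With limma 0 of 62 passed after adjustment (0% of all genes), and the adjusted p of every member was 1. Plxnb1, Robo1 and Sema4g were higher without overlap (4.84%, against 3.34% of all genes), and Sema7a was lower without overlap (1.61%, against 3.02%). Members with a higher mean numbered 34 and with a lower mean 28, and the median log2 difference was 0.03, beside -0.0073 over all genes. The count at an unadjusted p under 0.05 was 0 without P3 high DOX replicate 1 or OPC lesion replicate 3, 2 without P3 low DOX replicate 3, 3 without P3 high DOX replicate 2, and 5 when P3 high DOX replicate 2 and OPC lesion replicate 1 were both left out. The median half-width of a member's unadjusted 95% interval was 0.98 log2 units with 3 arrays a group. A 2-fold difference of a typical member would thus only just reach an unadjusted p under 0.05. After adjustment over all genes such a difference would not have been detected.

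With both doses averaged, P3 tumors differed from OPC lesions by no member after adjustment (0 of 62 with limma, 0% of all genes, smallest adjusted p 0.974). Plxnb1 alone was higher at an unadjusted p under 0.05 (1.61%, against 1.71% of all genes), and none was lower, against 2.14%. Plxnb1 was also the only member without overlap (1.61% higher, against 1.05% of all genes, and none lower, against 0.784%). Robo1 at 0.79 ± 0.36, Sema5a at 0.78 ± 0.37, Nrp2 at 1.34 ± 0.71 and Ephb4 at 0.55 ± 0.31 had positive log2 differences, and Sema3c at -1.04 ± 0.59 and Robo3 at -0.43 ± 0.23 negative ones (SE; limma adjusted p = 0.974 each). The members' median was -0.08, beside -0.0053 over all genes. The count of 1 member became 8 without P3 high DOX replicate 2 and 7 without OPC lesion replicate 2.

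Many members were highest on the neuron-rich arrays, a pattern described after the values were seen. P3 high DOX replicate 2 held the highest signal of 19 of 62 members (30.6%), against 13.6% of all genes. For 16 members (25.8%, against 11.8% of all genes) the 2 highest arrays were P3 high DOX replicate 2 and OPC lesion replicate 1: the ephrins Efna3 and Efna5, the receptors Epha4, Epha5, Epha6, Epha7 and Epha10, the plexins Plxna2, Plxna4 and Plxnc1, Robo2, Slit1, and the semaphorins Sema3c, Sema4a, Sema4f and Sema6b. For 8 members (12.9%, against 10.6% of all genes) the same arrays were the lowest: Sema3d, Sema4c, Sema6d, Plxnb2, Plxnb3, Epha1, Ntn1 and Ntn4. Sema4a, a semaphorin of immune and neural cells, had 6.17, 9.20 and 5.99 in P3 high DOX, 7.28, 7.07 and 7.54 in P3 low DOX, and 8.08, 7.88 and 7.02 in OPC lesion, so within P3 high DOX 1 array set the group mean. Plxna4, a receptor of Sema6a and Sema6b, had 7.20, 9.24 and 6.90 in P3 high DOX, 6.34, 6.46 and 7.14 in P3 low DOX, and 8.79, 5.93 and 7.29 in OPC lesion, with the same 2 arrays on top.

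Of 56 further guidance genes (co-receptors, other ligands and cytoplasmic effectors), 55 were measured, and with limma 0 passed after adjustment in any comparison. At an unadjusted p under 0.05, 8 (14.5%) were higher and 2 (3.64%) lower in P3 high DOX than in P3 low DOX, against 5.25% and 4.89% of all genes. In P3 low DOX minus OPC lesion 2 (3.64%) were higher and 6 (10.9%) lower, against 4.40% and 5.41% of all genes. In P3 high DOX minus OPC lesion 1 (1.82%) was higher and none lower, against 0.897% and 0.726%, and with both doses averaged 3 (5.45%) were higher and 2 (3.64%) lower than in OPC lesion, against 1.71% and 2.14%. The smallest p among them was that of Flrt3, a leucine-rich membrane protein that binds Robo1 and Unc5 receptors. Flrt3 had 6.71, 6.46 and 6.37 in P3 high DOX, 5.15, 5.21 and 5.505 in P3 low DOX, and 6.29, 6.28 and 6.67 in OPC lesion. As for Dcc, all 3 P3 low DOX arrays were below all 6 others, at a log2 difference of 1.23 ± 0.17 for P3 high DOX minus P3 low DOX (2.34-fold, limma adjusted p = 0.196) and -1.13 ± 0.17 for P3 low DOX minus OPC lesion (adjusted p = 0.182).

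Unc5b, a netrin receptor for repulsion also found on endothelium, had 5.97, 6.34 and 6.32 in P3 high DOX, 9.02, 6.82 and 7.49 in P3 low DOX, and 6.10, 6.91 and 6.26 in OPC lesion. It thus ran opposite to Dcc in the group means, with a log2 difference of -1.56 ± 0.51 for P3 high DOX minus P3 low DOX (2.95-fold lower, limma adjusted p = 0.429). The other Unc5 receptors did not. In the same comparison Unc5a, Unc5c and Unc5d had log2 differences of 1.58, 0.20 and 2.27, of the same sign as Dcc and with overlapping groups. Chn1, a Rac-inactivating protein downstream of EphA4, had 9.49, 10.52 and 8.68 in P3 high DOX, 7.90, 7.72 and 6.83 in P3 low DOX, and 10.72, 8.37 and 9.70 in OPC lesion. P3 low DOX was below every other array. Gap43, a growth cone protein, was lower in P3 low DOX than in OPC lesion by a log2 difference of -0.83 ± 0.21, and Mical3, of the family of oxidoreductases that act under plexins, was higher by 1.10 ± 0.29 (adjusted p = 0.436 each). In P3 high DOX minus OPC lesion the smallest p belonged to Dscaml1, an adhesion molecule of neurons, at 1.10 ± 0.38, and Flrt1, a relative of Flrt3, stood at 0.97 ± 0.49 (limma adjusted p = 1 each). Trio, between them by p, stood at 0.72 ± 0.35, with every P3 high DOX array above every OPC lesion array. With both doses averaged, Flrt3 at -0.51 ± 0.14, Mical3 at 0.81 ± 0.25 and Gap43 at -0.51 ± 0.18 led, with adjusted p = 0.974 each.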

How the data were processed

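Total RNA from 9 samples was hybridised to Affymetrix GeneChip Mouse 2.0 ST arrays. The authors deposited log2 signals for 41345 probe sets, made by RMA in R/Bioconductor (background correction, quantile normalization, probe summary). Their methods add a surrogate variable step, and whether the deposited log2 values are from before or after it is not given in the sources used here, which could change the spread within groups. The number of arrays limits the precision. Of the probe sets, 23521 name 1 gene in the platform annotation, 1820 name several and were left out. The probe set with the highest mean was kept for each of 22180 genes (1082 genes had several).

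All 9 arrays were fitted together with limma 3.58.1 (lmFit, eBayes, R 4.3.3), with Benjamini-Hochberg adjustment over all genes and a threshold of 0.05, after the script was tested on simulated data. Groups came from the sample labels. Members with the 8 smallest p-values in each comparison and the 6 with the highest mean signal, which also depends on the probes, are given in full, and any other member named was picked with its values in view. The members and lists were chosen with earlier results of these data known. Figures were drawn with matplotlib 3.10.9. Alternatives were centring, quantile normalization, leaving out the lowest 25% of genes, averaging probe sets, a variance trend, fits of the compared groups only, a replicate block and leaving out each array, and, added after seeing the data, the joint removal of 2 arrays and the count at an unadjusted p under 0.05. No column was left unmapped.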

Additional observations from a re-analysis of the deposited data

How the results depend on the processing

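No member passed an adjusted p of 0.05 with limma under any setting, the smallest being 0.1205 (Ephb6, P3 low DOX minus OPC lesion, without OPC lesion replicate 2). The 32 differences with the 8 smallest p-values in each comparison kept their sign in every setting. They were picked by p on these same arrays, so a kept sign is no separate evidence for them. Counts at an unadjusted p under 0.05 moved, and the cause was not tested. For P3 high DOX minus P3 low DOX (9) they were 5 to 14 with 1 array left out. For P3 low DOX minus OPC lesion (7) they were 3 to 14 with 1 array left out and 11 after quantile normalization. For P3 high DOX minus OPC lesion (1) they were 0 to 3 with 1 array left out and 5 without the 2 arrays with most neuron signal. For the mean of both doses minus OPC lesion (1) they were 1 to 8 with 1 array left out, 3 after quantile normalization, 0 with probe sets averaged and 4 without the 2 neuron-rich arrays. The members' median for P3 high DOX minus P3 low DOX (0.15) was -0.0049 to 0.23 with 1 array left out, and -0.0049 without the 2 neuron-rich arrays. The numbers given to replicates showed no sign of pairing. Deviations of same-numbered arrays correlated at -0.48 to 0.27, and those of differently numbered arrays of different groups at -0.72 to 0.67. Such correlations cannot settle whether arrays were paired. With a replicate block the unadjusted counts were 0 for P3 high DOX minus OPC lesion, 8 for P3 low DOX minus OPC lesion and 2 for the mean of both doses, with 0 members called. With 3 arrays a group and no detection calls, small differences and dim members are beyond these data.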
